A study of Mus musculus with 8 samples.

Results

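The 10 genes described here, Pecam1, Cdh5, Kdr, Flt1, Tek, Tie1, Esam, Cldn5, Emcn and Eng, are genes known for their expression in the endothelial cells that line blood vessels. They were chosen by symbol from the 26586 genes of the count table, on earlier results of these data that had placed Esam among the genes differing between the groups. Their differences between the groups are therefore given as a description, and the counts of them past a threshold stand beside the share of all genes and support nothing. The data are RNA-Seq counts of primordial follicles of mice at postnatal day 3, in 4 libraries of mito-supplemented females and 4 of controls, all of C57Bl/6 x CBA background. The mito-supplemented samples are of the third generation after founders made by sperm injection with added mitochondria of their own strain, using eggs of superovulated females. The study describes colony controls from natural mating in its litter comparison, and does not give the origin of the sequenced controls separately. Unless these controls shared the procedures, supplementation cannot be told apart from superovulation, sperm injection, embryo culture, vitrification and embryo transfer in the ancestry. Follicles were freed from the ovary by enzyme and collected with fine tips, without a sort for a cell type, so the isolates may hold cells from around the follicles. The samples are labelled as biological replicates and the study counts each group in mice, with RNA taken by ovary. The sources used here do not say which samples shared a litter. In the codes of the sample titles, control replicates 1 and 2 share a prefix, as do control replicates 3 and 4 and mito-supplemented replicates 1 to 3. The meaning of the prefixes is not given, so samples of a group may not be independent. The p-values measure only the spread between these samples.

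Endothelial cells respond to vascular endothelial growth factors through the receptor tyrosine kinases encoded by Kdr and Flt1, and to angiopoietins through the receptor encoded by Tek, whose partner is encoded by Tie1. Neighbouring cells are held together by the cadherin of Cdh5, the immunoglobulin-like adhesion molecules of Pecam1 and Esam and the claudin of Cldn5. Emcn encodes a sialomucin of the cell surface, and Eng encodes endoglin, a co-receptor that presents bone morphogenetic proteins to the receptor encoded by Acvrl1. The primordial follicle itself, an oocyte with a layer of flat pregranulosa cells, has no vessel of its own and lies beside the vessels of the ovarian stroma.

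The libraries held 17658559, 13917412, 18219362 and 10370045 counts in the controls (replicates 1 to 4 in order), and 19760763, 13370911, 16116434 and 13276462 in the mito-supplemented samples. Reads on 4 rRNA genes made up 75.3% of control replicate 4, against 20.2% to 45.6% in the other libraries, which left 2559876 counts on other genes in that library. The 10 genes together took 675, 604, 1074 and 1189 counts in the controls and 2210, 3332, 4604 and 3181 in the mito-supplemented samples. Levels are given in CPM, the counts of a gene scaled by library size, after TMM normalization. The 10 genes summed to 27.7, 47.9, 61.4 and 234.7 CPM in controls and to 107, 231, 209 and 221 CPM in the mito-supplemented samples, so control replicate 4 lay above every mito-supplemented library. This place depends on the scaling, as that library had a TMM factor of 0.489 and rRNA genes held 75.3% of its total. Scaling by library size keeps the rRNA counts in the total. With library size only, chosen after seeing the data, the sums were 38.2, 43.4, 58.9 and 114.7 CPM in controls and 111.8, 249, 286 and 239.6 CPM in the mito-supplemented samples, and control replicate 4 lay above mito-supplemented replicate 1 and below the others. In these bulk samples, fewer cells of a type and less RNA per cell cannot be told apart. Kdr alone made up between 28.6% and 83.7% of the summed level. Without Kdr the sum was 42.9 ± 31.6 CPM in controls and 65.1 ± 40.9 CPM in the mito-supplemented samples (SD, n = 4 each), a difference smaller than either SD. Single counts carry a 95% Poisson interval for counting error alone, because the reads come from amplified cDNA.

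**Figure D1:**
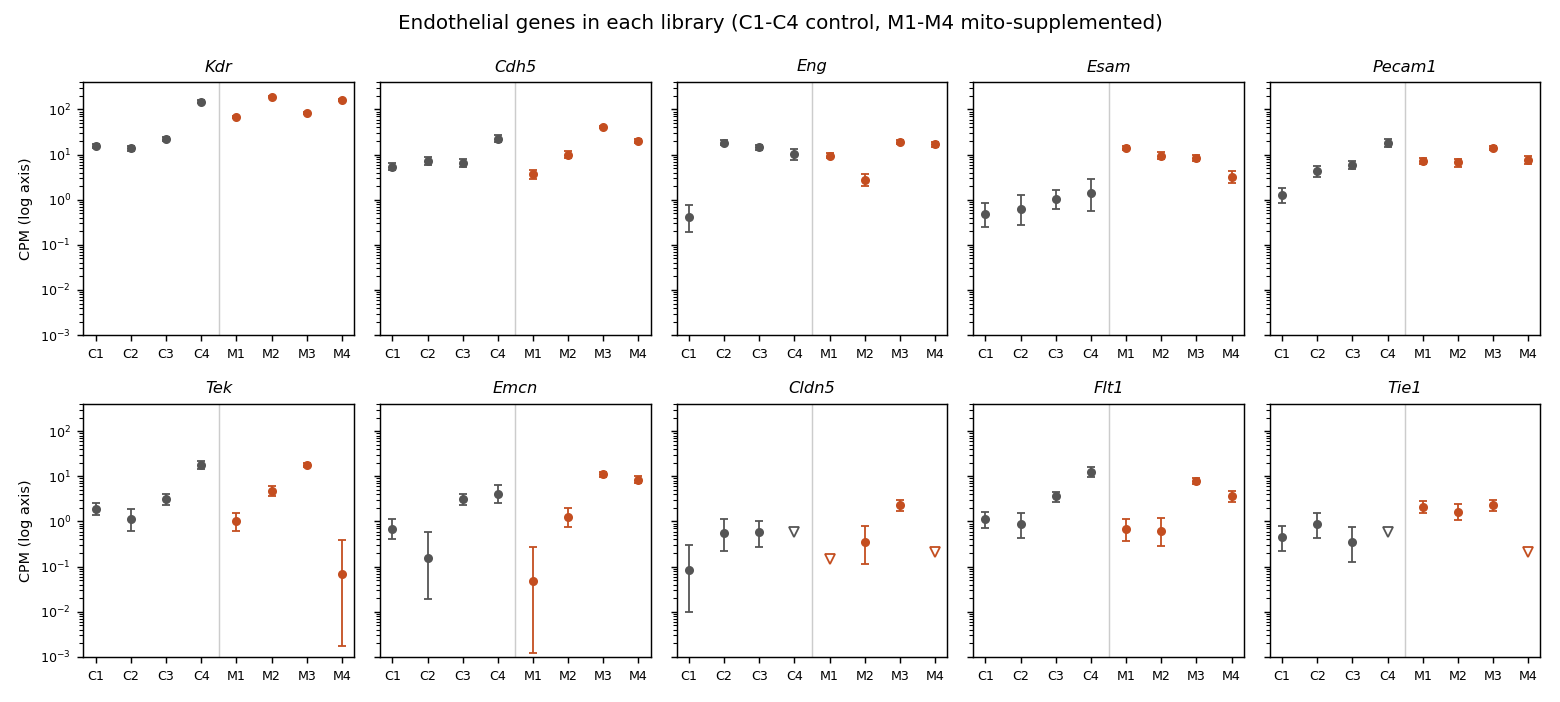
CPM on a log axis of each of the 10 endothelial genes in control (C1 to C4, grey) and mito-supplemented (M1 to M4, orange) replicates, ordered by mean level per kilobase. Bars are 95% Poisson intervals, and open triangles mark libraries with 0 counts, drawn at the CPM of 3 counts. The groups do not overlap for Esam and overlap for the other 9 genes.

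All 10 genes had counts, with at least 1 count in all 8 libraries for 8 of them, in 6 libraries for Tie1 and in 5 for Cldn5. Divided by exon length, the order of the mean levels over the 8 libraries was Kdr (9.79 ± 7.87 CPM per kb), Cdh5 (3.48 ± 3.06), Eng (2.83 ± 1.74), Esam (1.68 ± 1.78), Pecam1 (1.31 ± 0.87), Tek (1.27 ± 1.59), Emcn (0.67 ± 0.77), Cldn5 (0.34 ± 0.55), Flt1 (0.28 ± 0.32) and Tie1 (0.20 ± 0.19; SD, n = 8). Kdr exceeded Cdh5 by 1.06 times their pooled SD, and the other neighbours in this order differed by less than 1 SD. Esam changed its place most between the groups, standing at 0.308 ± 0.140 CPM per kb and place 8 in controls and at 3.06 ± 1.54 CPM per kb and place 3 in mito-supplemented samples (SD, n = 4 each). With the longest transcript as the length, Kdr stood at 14.9, Esam at 2.59, Pecam1 at 2.38, Emcn at 1.03 and Flt1 at 0.56 CPM per kb, and the exons counted by the authors may differ from those used here. Cldn5 stood at 0.16 CPM per kb without mito-supplemented replicate 3. Among lists of other cell types, the most abundant gene per kilobase had a higher mean level than Kdr for erythroid cells (Slc4a1, 186.6 CPM per kb), oocytes (Dppa3, 105.7), stroma (Mfap4, 100.4), leukocytes (Lyz2, 80.2), smooth muscle (Myl9, 44.7), surface epithelium (Wt1, 39.7) and pregranulosa cells (Amhr2, 13.1). It had a lower level for platelets (Gp9, 7.18 CPM per kb) and pericytes (Cox4i2, 4.74).

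Kdr, the main signalling receptor for VEGF-A (chromosome 5 of GRCm38, 75932827 to 75978458, minus strand), had 15.9, 13.7, 22.4 and 148 CPM in the controls, and 68.9, 193, 84.3 and 161 CPM in the mito-supplemented samples. In 3 controls it lay below every mito-supplemented library, whereas control replicate 4 was higher than 2 of them. The fitted log2 fold change was 1.35 (standard error, SE, 0.78), and over the alternative fits it ran from 1.04 to 2.88, the latter in the fit that left out control replicate 4. Flt1 (chromosome 5, 147561604 to 147726011, minus strand), which binds the same ligand with high affinity and signals weakly, had 27, 11, 63 and 63 counts in controls and 14, 9, 173 and 52 in mito-supplemented samples. It was highest in control replicate 4 (12.4 CPM) and mito-supplemented replicate 3 (7.85 CPM) and lowest in mito-supplemented replicates 1 and 2 (0.679 and 0.623 CPM), where Kdr reached 68.9 and 193 CPM. The receptors thus differed in which library was highest, although control replicate 4 was high in both. Their levels in log2 CPM had a Pearson r of 0.31 (Spearman rho 0.12) over the 8 libraries.

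The promoters of this pair are shown because both genes encode receptors of VEGF-A and their levels differed between libraries. RefSeq promoters matched 7 of the 10 genes, with no entry for Pecam1, Cdh5 and Esam. Capitals mark the letters GGAAG or, on the other strand, CTTCC, the core word of ETS factors, in windows of 300 bases of GRCm38.p6 over chr5:75978406-75978705 for Kdr and chr5:147725962-147726261 for Flt1, both on the minus strand and written 5′ to 3′.
Kdr: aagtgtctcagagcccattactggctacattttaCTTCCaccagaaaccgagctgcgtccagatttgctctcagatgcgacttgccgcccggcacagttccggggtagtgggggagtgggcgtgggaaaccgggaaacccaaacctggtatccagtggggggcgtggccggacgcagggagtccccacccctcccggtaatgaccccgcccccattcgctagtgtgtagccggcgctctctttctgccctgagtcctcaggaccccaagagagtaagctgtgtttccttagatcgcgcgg
Flt1: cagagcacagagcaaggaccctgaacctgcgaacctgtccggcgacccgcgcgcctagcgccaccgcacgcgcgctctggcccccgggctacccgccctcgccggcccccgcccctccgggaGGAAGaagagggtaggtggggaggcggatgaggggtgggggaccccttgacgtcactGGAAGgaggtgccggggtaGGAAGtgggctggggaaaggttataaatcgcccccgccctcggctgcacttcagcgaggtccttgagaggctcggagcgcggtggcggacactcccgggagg
The ETS word stood 1 time in the Kdr window and 3 times in the Flt1 window. It was found in 5 of the 7 windows, those of Emcn, Eng, Flt1, Kdr and Tie1, and in 71.4% of all 32851 RefSeq promoters of this length. The GC box GGGCGG, searched on both strands, was in 3 of the 7 windows (Cldn5, Flt1 and Kdr) and in 35.7% of all promoters. A match of letters describes the window and shows no binding.

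Of the ligands of the VEGF family, the co-receptors Nrp1 and Nrp2 and the related receptor Flt4, 7 of the 8 genes in the count table were tested. Of these, 0 passed the quasi-likelihood or the likelihood ratio test. Of all genes tested, 0% passed the first, and 0.411% were called higher and 0.00721% lower by the second. Vegfa, the ligand of Kdr and Flt1 made by many cell types, had 7.59, 24.3, 19.9 and 27.8 CPM in controls and 32.6, 87.6, 39.7 and 35.6 CPM in the mito-supplemented samples. All mito-supplemented libraries lay above all controls, with a log2 fold change of 1.30 (SE 0.50, adjusted p = 0.626 in edgeR's quasi-likelihood test). Vegfb, the ligand with the highest level per kilobase (11.4 CPM per kb), and Nrp1, the most abundant co-receptor (2.67 CPM per kb), overlapped between the groups. Their log2 fold changes were 0.59 (SE 0.47) and 0.59 (SE 0.82). Pgf, the placental ligand of Flt1, held counts in 2 libraries, with 3 in mito-supplemented replicate 1 and 2 in replicate 3, and is named after its values were seen.

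Tek (chromosome 4, 94739289 to 94874976), the angiopoietin receptor, had 46, 14, 55 and 91 counts in controls and 21, 69, 392 and 1 in mito-supplemented samples, which is 1.89, 1.11, 3.15 and 18.0 CPM and 1.02, 4.78, 17.8 and 0.070 CPM. The span within the mito-supplemented group was wider than the difference between the group means, which were 6.03 ± 8.001 and 5.91 ± 8.17 CPM (SD, n = 4 each). The log2 fold change of Tek was -0.00 (SE 1.33), which became -1.58 on leaving out mito-supplemented replicate 3 and 1.56 on leaving out control replicate 4. Tie1 (chromosome 4, 118471191 to 118490061, minus strand), its partner with no known high-affinity ligand of its own, had 11, 11, 6 and 0 counts in controls and 44, 24, 51 and 0 in mito-supplemented samples. Mito-supplemented replicates 1 to 3 were above every control, whereas 0 counts were found in mito-supplemented replicate 4, where the limit of 3 counts equals 0.209 CPM. The 2 libraries without Tie1 counts were also without counts of Cldn5.

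The ligands and regulators of these receptors numbered 6, of which 5 were tested and 0 were called by either edgeR test. Of all genes, 0% were called by quasi-likelihood, and 0.411% higher and 0.00721% lower by the likelihood ratio test. Angpt2, the context-dependent antagonist of Tek and the most abundant gene of the list (4.86 CPM per kb), had 27.6, 40.5, 27.3 and 6.91 CPM in controls and 22.7, 9.70, 6.67 and 2.02 CPM in the mito-supplemented samples. It had the lowest log2 fold change of the list, -1.32 (SE 0.74, adjusted p = 0.682 in edgeR's quasi-likelihood test), with overlapping groups.

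Cdh5 (chromosome 8, 104101625 to 104144511), the vascular endothelial cadherin, had 131, 92, 115 and 115 counts in controls and 75, 145, 912 and 290 in mito-supplemented samples. In CPM these were 5.37, 7.29, 6.58 and 22.7, and 3.64, 10.04, 41.4 and 20.2. The lowest and the highest libraries were both mito-supplemented, replicates 1 and 3, and the log2 fold change of 0.85 (SE 0.76) became 0.14 when mito-supplemented replicate 3 was left out and 1.58 when this was done for control replicate 4. Pecam1 (chromosome 11, 106654217 to 106750628, minus strand), which is also carried by platelets and leukocytes, ranged from 1.27 CPM in control replicate 1 to 18.2 CPM in control replicate 4. Its 4 mito-supplemented values, 7.28, 6.72, 14.1 and 7.72 CPM, lay within the range of the controls. Cldn5 (chromosome 16, 18776847 to 18778262), a claudin of tight junctions, had 2, 7, 10 and 0 counts in controls and 0, 5, 51 and 0 in mito-supplemented samples. Mito-supplemented replicate 3 thus held 51 of its counts, and the gene did not pass the filter on low counts. Emcn (chromosome 3, 137341067 to 137432185), a marker of capillaries and veins, had 17, 2, 55 and 21 counts in controls and 1, 18, 247 and 121 in mito-supplemented samples. Both groups held a library with almost no Emcn, and the log2 fold change was 1.38 (SE 1.35). The same omissions gave 0.72 (mito-supplemented replicate 3) and 1.98 (control replicate 4), and it was 0.65 with limma-voom and 2.06 with library size only.

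Among the 12 junction partners tested, 0 were called by either edgeR test, beside 0.411% of all genes called higher by the likelihood ratio test, and 9 log2 fold changes were above 0 and 3 below, beside 44.9% of all genes above 0. The most abundant, Ctnnb1 (41.4 CPM per kb), encodes the beta-catenin that binds cadherins in many cell types and had 188 ± 55.8 CPM in controls and 242 ± 32.2 CPM in the mito-supplemented samples (SD, n = 4 each), a difference within the spread of the controls. The exons of Ctnnb1 overlap 759 bases of an opposite-strand gene, and its counts are uncertain to that extent, as the strand setting of the counting is not stated.

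Eng (chromosome 2, 32646595 to 32682669) had 0.410, 18.4, 14.6 and 10.1 CPM in controls and 9.56, 2.77, 19.1 and 16.9 CPM in the mito-supplemented samples. Control replicate 1, with 10 counts, was the lowest of the 8 libraries, and the log2 fold change was 0.16 (SE 0.92). Its sign did not hold, as leaving out that library gave -0.22 and leaving out replicate 3 or 4 of the mito-supplemented samples gave -0.13 or -0.03, and it was 1.29 with limma-voom. Its exons share 61 bases with Fpgs on the opposite strand.

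Esam (chromosome 9, 37528078 to 37538319), an adhesion molecule of endothelial tight junctions that platelets and megakaryocytes also carry, had 12, 8, 18 and 7 counts in controls and 287, 137, 187 and 46 in mito-supplemented samples. This is 0.492, 0.634, 1.03 and 1.38 CPM against 13.9, 9.49, 8.48 and 3.20 CPM. All controls were low and all mito-supplemented libraries were above them, with the counting intervals of the nearest pair overlapping, 0.556 to 2.85 CPM in control replicate 4 and 2.34 to 4.27 CPM in mito-supplemented replicate 4. The means were 0.884 ± 0.402 and 8.77 ± 4.41 CPM (SD, n = 4 each), a 9.92-fold difference, and the log2 fold change was 3.33 (SE 0.74). Leaving out single libraries gave values from 3.04 to 3.64. No other gene annotated in GENCODE M21 shares exon bases with Esam.

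Esam differed from Cdh5, Emcn and Cldn5 in the order of the libraries. Mito-supplemented replicate 1 had the highest Esam level and the lowest levels of Cdh5 (75 counts) and Emcn (1 count), with 0 counts of Cldn5. The ratio of Esam to Cdh5 per kilobase was 0.134, 0.128, 0.229 and 0.089 in the controls, against 5.61, 1.39, 0.301 and 0.232 in the mito-supplemented samples. The groups did not overlap in this ratio, although mito-supplemented replicate 4 and control replicate 3 were nearly equal. Esam correlated with Kdr at r = 0.69 (rho 0.67), with Tie1 at 0.52 (rho 0.49) and with Pecam1, the other immunoglobulin-like adhesion molecule, at 0.51 (rho 0.57). The coefficients were lower with Eng (0.23, rho 0), Cdh5 (0.19, rho 0.14), Tek (0.09, rho 0), Cldn5 (0.07, rho -0.20), Emcn (0.06, rho 0.07) and Flt1 (-0.11, rho -0.24). They describe 8 libraries that form 2 separate groups for Esam, and no p is given.

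**Figure D2:**
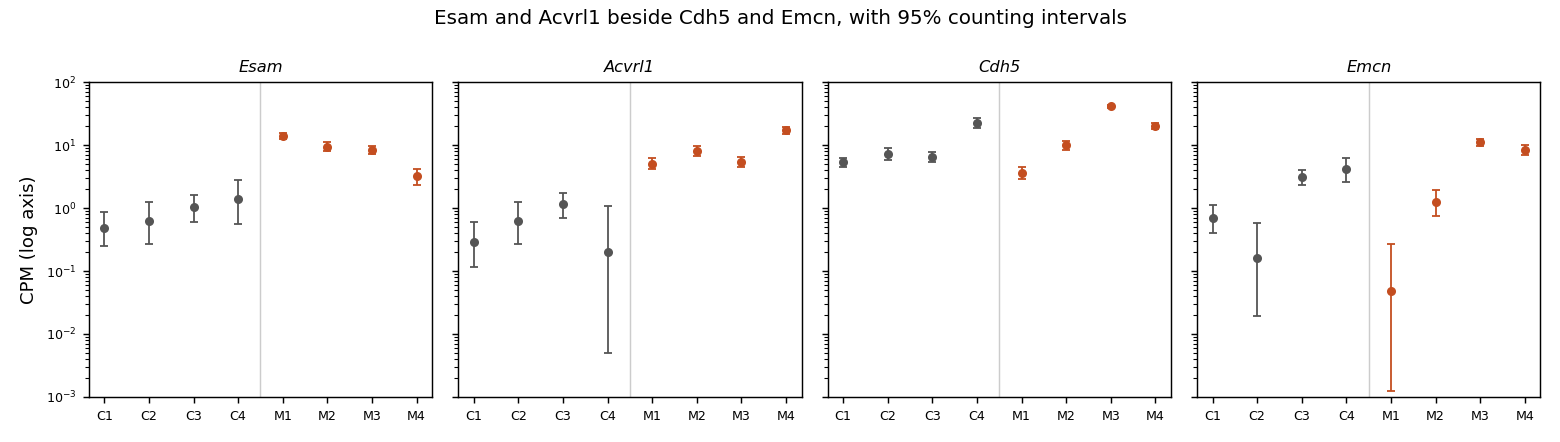
CPM on a log axis of Esam and Acvrl1, whose groups do not overlap, beside Cdh5 and Emcn, whose groups overlap, in control (C1 to C4, grey) and mito-supplemented (M1 to M4, orange) replicates. Bars are 95% Poisson intervals. In M1 Esam reached 13.9 CPM and Emcn 0.049 CPM.

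The gene downstream of Esam on the same strand, Vsig2 (chromosome 9, 37539255 to 37544205), starts 935 bases beyond its end and was looked at after its values were seen. Vsig2 encodes another membrane protein of the immunoglobulin superfamily. It had 1, 2, 3 and 3 counts in controls and 20, 54, 26 and 147 in mito-supplemented samples, so that its groups did not overlap either. The controls held no more than the limit of 3 counts, so Vsig2 met the filter on low counts through mito-supplemented libraries alone. Its fitted log2 fold change of 4.22 (SE 1.22) is therefore no exact value and supports nothing. Vsig2 was not called, with an adjusted p of 0.599 in edgeR's quasi-likelihood test and 0.072 in its likelihood ratio test. The highest library differed between the neighbours, being mito-supplemented replicate 1 for Esam and replicate 4 for Vsig2.

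The 9 genes that passed the filter on low counts were set beside all 13873 genes tested, with the filter met in Tie1 through 1 control and 3 mito-supplemented libraries and in Esam through 3 and 4. The thresholds for a call were an adjusted p of 0.05 and a log2 fold change of 1 in either direction. By edgeR's quasi-likelihood test, the main test, 0 genes were called (0%), and 0 of the 9. The lowest adjusted p was 0.418, and at an unadjusted p under 0.05 there were 736 genes higher in mito-supplemented samples (5.31%), with 1 of the 9, and 333 lower (2.40%), with 0 of the 9. By edgeR's likelihood ratio test 57 genes were higher (0.411%) and 1 was lower (0.00721%). Without mito-supplemented replicate 1, a fit chosen after seeing the data, that test called 387 genes, of which 229 were higher and the rest lower. Esam was 1 of the 57 (adjusted p = 0.0123 in edgeR's likelihood ratio test, 0.450 by quasi-likelihood), a call that was known when the genes were chosen. DESeq2 also called Esam (adjusted p = 0.000466 in DESeq2), beside 0.959% of all genes called higher. The likelihood ratio call of Esam was lost on leaving out control replicate 2 (adjusted p = 0.146, edgeR's likelihood ratio test), control replicate 3 (0.064), mito-supplemented replicate 2 (0.117) or mito-supplemented replicate 3 (0.067), and with the replicate number as a block (0.071). Groups did not overlap for 416 genes with mito-supplemented samples higher (3.00%), 1 of the 9 among them, and for 282 with mito-supplemented samples lower (2.03%), with 0 of the 9. Log2 fold changes were above 0 for 7 of the 9 and below 0 for Flt1 and Tek. Their median was 0.85 beside -0.10 over all genes tested, of which 44.9% were above 0. This median of the 9 rests on single libraries and on the scaling, as it became 0.14 when mito-supplemented replicate 3 was left out, 1.56 when control replicate 4 was, and 1.57 with library size only, alternatives for the median that were chosen after seeing the data.

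**Figure D3:**
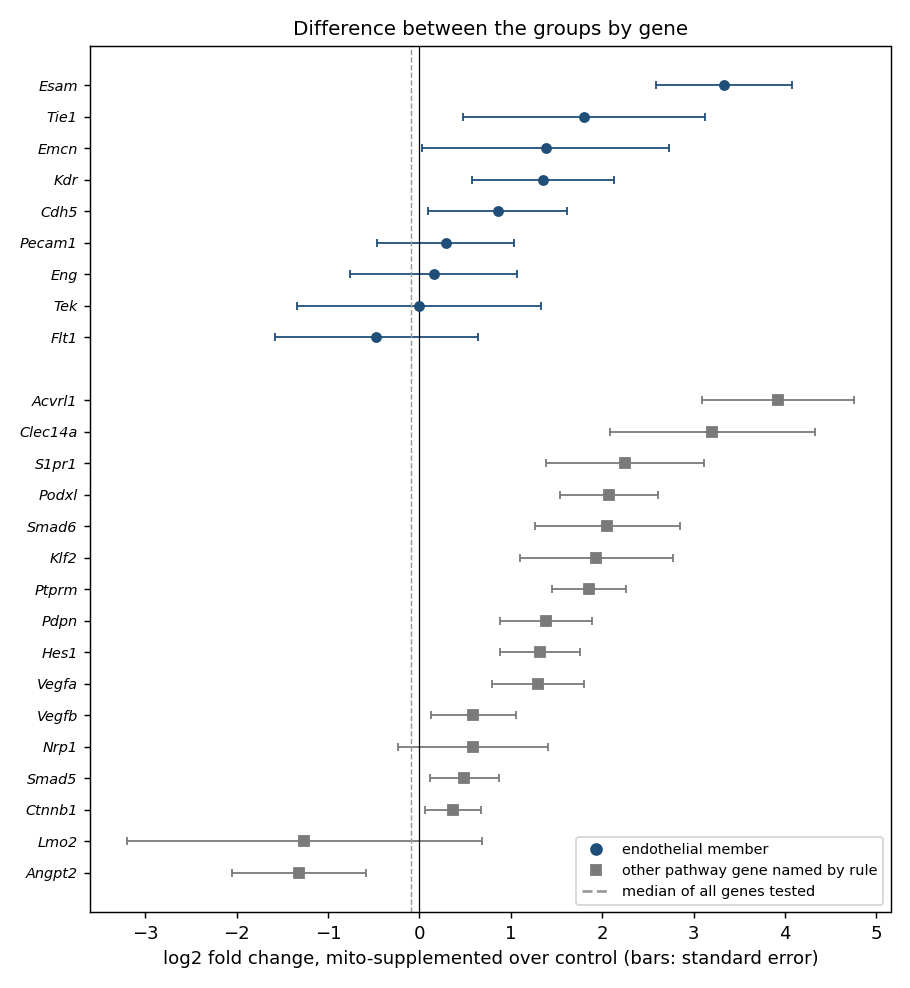
Log2 fold change of mito-supplemented over control samples with its standard error, for the 9 endothelial genes tested (circles) and the 16 other pathway genes that the rule for named genes took (squares), without those named after their values were seen. The solid line is 0 and the dashed line the median of all genes tested, -0.10. Esam (3.33) and Acvrl1 (3.92) lie furthest to the right.

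Other genes of the endothelial pathways gave 103 genes in the count table, of which 76 were tested. All pathway lists, those above and below included, were chosen with earlier results of these data known. Their counts beside the share of all genes are a description and support nothing. None was called by the quasi-likelihood test, in which 15 were higher at an unadjusted p under 0.05, beside 5.31% of all genes tested, and 0 lower, beside 2.40%. The likelihood ratio test called 2, both higher, beside 0.411% of all genes, and DESeq2 called 4, all higher, beside 0.959% of all genes called higher and 0.0732% lower. The likelihood ratio count rests on single libraries, in fits chosen after seeing the data. It was 0 without control replicate 2, mito-supplemented replicate 2 or mito-supplemented replicate 4. Without control replicate 4 it was 5, and without mito-supplemented replicate 1 it was 7, of which 5 were higher. The median log2 fold change of the 76 was 0.70, with 57 above 0 and 19 below, beside a median of -0.10 and 44.9% above 0 over all genes tested. Groups did not overlap for 9 of the 76, all with mito-supplemented samples higher, beside 3.00% of all genes tested.

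Acvrl1 (chromosome 15, 101128522 to 101145336), the receptor to which endoglin presents its ligands, had 7, 8, 20 and 1 counts in controls and 105, 116, 121 and 247 in mito-supplemented samples. In CPM this was 0.287, 0.634, 1.14 and 0.197 against 5.09, 8.03, 5.49 and 17.2, so the groups did not overlap. Control replicate 4, with 1 count, lay under the limit of 3 counts, 0.592 CPM in that library. Controls other than replicate 3 held fewer than 10 counts, the minimum of the filter at median depth. Acvrl1 thus met the filter mainly through the mito-supplemented libraries, so its fitted change is no exact value and its call supports nothing. The log2 fold change was 3.92 (SE 0.83), with an adjusted p of 0.440 in edgeR's quasi-likelihood test and of 0.00528 in its likelihood ratio test. The adjusted p of Acvrl1 ran from 0.000259 with DESeq2 to 0.972 over the alternatives of the main test, and the likelihood ratio call held in 5 of 8 fits that each left out a library. The call was lost on leaving out control replicate 2 (adjusted p = 0.075, edgeR's likelihood ratio test), mito-supplemented replicate 2 (0.054) or mito-supplemented replicate 4 (0.058). Its exons share 127 bases with an opposite-strand gene. Eng, its co-receptor, had overlapping groups in the same libraries.

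The other partners of endoglin were measured as well. Smad6, an inhibitor induced by bone morphogenetic protein signalling, had 9, 17, 11 and 5 counts in controls and 71, 71, 46 and 48 in mito-supplemented samples, with no overlap in CPM and a log2 fold change of 2.05 (SE 0.79, adjusted p = 0.626 in edgeR's quasi-likelihood test). Smad6 met the filter on low counts mainly through the mito-supplemented libraries, so this change is no exact value. The list had 10 genes tested, 8 with log2 fold changes above 0, Acvrl1 and Smad6 among them, and 2 below, with a median of 0.64, beside 44.9% above 0 and a median of -0.10 over all genes tested. Of other targets of the same pathway, Id3 had a log2 fold change of 0.86 (SE 0.60), Smad7 0.69 (SE 0.73) and Id1 -0.26 (SE 0.87), with overlapping groups for each, and these targets are named after their values were seen. Smad5, the most abundant of the list per kilobase (14.8 CPM per kb), had a log2 fold change of 0.49 (SE 0.38) and overlapping groups. The ligands Gdf2 and Bmp10, which are made in liver and heart and reach vessels through the blood, had 0 counts in all 8 libraries.

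Ptprm, a receptor phosphatase found at endothelial junctions, was the other gene called by the likelihood ratio test. It had 8.29, 10.9, 11.3 and 7.90 CPM in controls and 21.4, 45.8, 27.1 and 45.3 CPM in the mito-supplemented samples, and a log2 fold change of 1.86 (SE 0.41, adjusted p = 0.0496 in edgeR's likelihood ratio test, 0.450 by quasi-likelihood). The likelihood ratio call of Ptprm held in 2 of 8 fits that each left out a library, those leaving out control replicate 4 or mito-supplemented replicate 1. Its exons share 457 bases with another gene on the same strand.

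The count table held 34 other vascular endothelial markers, Ptprm included, of which 20 passed the filter on low counts and were tested. Those that failed it, among them Plvap, Ecscr, Icam2 and Nos3, are outside the counts that follow, which do not describe the whole list. Of the 20 tested, 16 had log2 fold changes above 0 and 4 below, with a median of 1.17, beside 44.9% above 0 and a median of -0.10 over all genes tested. Groups did not overlap for 4, Clec14a, S1pr1, Podxl and Ptprm, all with mito-supplemented samples higher, beside 3.00% of all genes tested. Clec14a, an endothelial lectin, had 6, 2, 23 and 3 counts in controls and 30, 23, 70 and 221 in mito-supplemented samples, and its log2 fold change was 3.20 (SE 1.12). Clec14a met the filter mainly through the mito-supplemented libraries, so this change is no exact value. S1pr1, a receptor of sphingosine 1-phosphate that stabilises vessels, had 4, 39, 51 and 5 counts against 129, 159, 127 and 162, and a log2 fold change of 2.25 (SE 0.87). Podxl, a sialomucin of vessels and of epithelia that line body cavities, was the most abundant of the list (53.6 CPM per kb) and made up 57.2% of its summed level. It had 61.8, 61.2, 109.5 and 219 CPM in controls and 306, 680, 239 and 678 CPM in the mito-supplemented samples, and a log2 fold change of 2.08 (SE 0.54, adjusted p = 0.544 in edgeR's quasi-likelihood test). Among the 4 markers with log2 fold changes below 0 was Vwf, the clotting factor stored in endothelial cells, at -1.09 (SE 0.93). It had 16, 139, 146 and 16 counts in controls and 127, 22, 38 and 21 in mito-supplemented samples. In CPM these were 0.656, 11.02, 8.35 and 3.16, and 6.16, 1.52, 1.72 and 1.46. The libraries highest in Vwf, control replicates 2 and 3 and mito-supplemented replicate 1, were also those high in erythroid genes. The part of blood cells in the level of Vwf was not tested. Fabp4 had 0 counts in all libraries. Vwf is named after its values were seen.

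Of the 16 endothelial transcription factors tested, 10 had log2 fold changes above 0 and 6 below, beside 44.9% of all genes above 0, and 0 were called by either edgeR test, beside 0.411% of all genes called higher by the likelihood ratio test. Klf2, which flow induces in endothelium, did not overlap between the groups, with 5.17, 2.14, 1.83 and 0.197 CPM in controls and 7.23, 5.61, 16.0 and 7.72 CPM in the mito-supplemented samples. Its log2 fold change was 1.94 (SE 0.84, adjusted p = 0.636 in edgeR's quasi-likelihood test). Lmo2, shared by endothelial and blood-forming cells, was the most abundant of the list (25.3 CPM per kb) and had 5, 2290, 2210 and 8 counts in controls and 2610, 8, 31 and 10 in mito-supplemented samples. The libraries high in Lmo2 were those high in erythroid genes, control replicates 2 and 3 and mito-supplemented replicate 1.

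Among 3 endothelial Notch genes tested, 0 were called by either edgeR test, beside 0.411% of all genes called higher by the likelihood ratio test. Hes1, a Notch target in many cell types and the most abundant of the list (8.03 CPM per kb), had 9.39, 4.60, 10.9 and 12.6 CPM in controls and 17.9, 27.4, 26.4 and 21.8 CPM in the mito-supplemented samples, with no overlap and a log2 fold change of 1.32 (SE 0.44, adjusted p = 0.626 in edgeR's quasi-likelihood test). Dll4, the Notch ligand of arteries and tip cells, had 37 counts in mito-supplemented replicate 3 and 0 in the other 7 libraries, and is named after its values were seen. Of the lymphatic genes 3 were tested and 0 called by either edgeR test, beside the same 0.411% of all genes called higher by likelihood ratio. Pdpn, the most abundant (23.8 CPM per kb), is also a gene of mesothelium and made up 80.0% of the summed level of the list, with a log2 fold change of 1.39 (SE 0.50) and overlapping groups. Lyve1, the lymphatic receptor for hyaluronan, which was not tested and is named after its values were seen, had 11, 1 and 45 counts in mito-supplemented replicates 1, 2 and 3 and 0 in the other 5 libraries.

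The genes also varied together across libraries in part. Mito-supplemented replicate 3 was the highest library for 5 of the 10 genes (Cdh5, Eng, Emcn, Cldn5 and Tie1) and control replicate 4 for 3 (Pecam1, Tek and Flt1). Esam was highest in mito-supplemented replicate 1 and Kdr in replicate 2. Of the 45 pairs, 36 had a Pearson r above 0 over the 8 libraries and 5 had an r above 0.7, with a median of 0.29. The pairs with the highest coefficients were Cdh5 with Emcn (r = 0.85, rho 0.86), Flt1 with Emcn (0.82, 0.79) and Cdh5 with Flt1 (0.79, 0.67). The lowest were Flt1 with Tie1 (-0.53, -0.46) and Emcn with Tie1 (-0.44, -0.25). The points share library depth and cell content, and no p is given.

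The genes most like Esam among the 13873 tested, by Pearson r in log2 CPM over 8 libraries, were Rnf122 (r = 0.97, rho 0.98), Zfand5 (0.96, 0.98), Slc44a2 (0.94, 0.93), Gm1979 (0.94, 0.95), Slc39a4 (0.94, 0.85), Gm20033 (0.93, 0.90), Afap1l1 (0.93, 0.91), Dbn1 (0.92, 0.91), Rnf144b (0.92, 0.91) and Trf (0.91, 0.91). Rnf122 had 2.87, 3.81, 4.12 and 4.14 CPM in controls and 14.1, 14.5, 8.98 and 7.79 CPM in the mito-supplemented samples. Groups did not overlap for 9 of the 10, the exception being Zfand5, beside 3.00% of all genes tested, and a choice by likeness to Esam, whose groups are separate, favours such genes. None of the 10 was called by the likelihood ratio test, beside 0.411% of all genes called higher. The genes most like the mean of the 9 members tested were Pros1 (r = 0.97, rho 0.95), Col5a2 (0.97, 0.95), Fbn1 (0.97, 0.98), Fam49a (0.96, 0.95) and Emp1 (0.96, 1.00). Fbn1, which encodes the matrix protein fibrillin, had 52.1, 55.9, 79.5 and 233 CPM in controls and 86.3, 169, 379 and 137 CPM in the mito-supplemented samples, with control replicate 4 and mito-supplemented replicate 3 the highest of their groups. Esam itself had an r of 0.57 with the mean of the members.

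Markers of other cell types were read in the same libraries. Their lists too were chosen with earlier results of these data known, so counts of them past a threshold support nothing. Surface epithelium genes, of which all 12 were tested, summed to 186, 129, 114 and 759 CPM in controls and 484, 1440, 645 and 1480 CPM in the mito-supplemented samples. All 12 had log2 fold changes above 0 (median 1.88), beside 44.9% of all genes tested, and 2, Upk1b and Gpm6a, were called higher by the likelihood ratio test, beside 0.411% of all genes. Wt1, shared by pregranulosa cells, was the most abundant of this list per kilobase, and none of the list was at 0. Kdr followed this sum, with control replicate 4 high and the other controls low in both, at r = 0.96 (rho 0.91) over the 8 libraries. This likeness was looked for after the values were seen, and its part in the level of Kdr was not tested. Stroma genes (12 of 12 tested, all 12 above 0, median log2 fold change 0.69, none at 0) summed to 461, 527, 801 and 2723 CPM in controls and 1073, 1121, 3004 and 2555 CPM in the mito-supplemented samples, again with control replicate 4 and mito-supplemented replicate 3 the highest of their groups, and their part in the endothelial levels was not tested.

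Pericyte genes, which mark the cells that wrap capillaries, summed to 38.5, 17.3, 15.7 and 51.3 CPM in controls and 15.6, 29.3, 79.9 and 50.8 CPM in the mito-supplemented samples, with 4 of 8 genes tested, 2 above 0 and 2 below, a median log2 fold change of 0.64 and none at 0. The most abundant per kilobase, Cox4i2, had 626 of its counts in control replicate 1. Smooth muscle genes (8 of 8 tested, 7 above 0, median log2 fold change 0.64) summed to 49.6, 56.6, 86.2 and 366 CPM in controls and 87.2, 126, 147 and 540.3 CPM in the mito-supplemented samples, led by Myl9 (44.7 CPM per kb), with none at 0. Platelet and megakaryocyte genes, which Esam could share, summed to 16.2, 40.1, 20.02 and 13.8 CPM in controls and 35.2, 4.22, 17.6 and 6.74 CPM in the mito-supplemented samples. Of these 12 genes 3 were tested, with log2 fold changes below 0, Ppbp and Treml1 had 0 counts in all 8 libraries, and Gp9 was the most abundant (7.18 CPM per kb). In mito-supplemented replicate 1, the library highest in Esam, the sum of this list was the second highest of the 8, and in replicate 2, where Esam had 9.49 CPM, it was the lowest. The part of platelets in the level of Esam was not tested.

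Erythroid genes set 3 libraries apart, with sums of 5662 and 3599 CPM in control replicates 2 and 3 and 5973 CPM in mito-supplemented replicate 1, against 26.5 to 94.9 CPM in the other 5. The list had 9 of its 14 genes in the count table and 7 tested, all 7 below 0, with a median log2 fold change of -0.47, and Slc4a1 was its most abundant gene (186.6 CPM per kb), with none at 0. Leukocyte genes (8 of 15 tested, all 8 above 0, median 1.00) were high in the same libraries, with 196 and 164 CPM in those controls and 1050 CPM in mito-supplemented replicate 1. Lyz2, the most abundant gene (80.2 CPM per kb), had 13151 counts in that library, and C1qb was at 0. Both sums were highest in mito-supplemented replicate 1, as was Esam. In mito-supplemented replicates 2 and 3, where Esam had 9.49 and 8.48 CPM, the erythroid sums were 94.9 and 32.9 CPM and the leukocyte sums 14.5 and 23.0 CPM. The part of blood cells in the level of Esam was not tested.

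Oocyte genes summed to 4434, 227, 225 and 808 CPM in controls and 393, 256, 946 and 145 CPM in the mito-supplemented samples, with 15 of 17 tested. All 15 had log2 fold changes below 0 (median -1.70), beside 44.9% above 0 and a median of -0.10 over all genes tested. The sum of control replicate 1 lay far above all others, and the other controls lay within the range of the mito-supplemented samples. Pregranulosa and granulosa genes summed to 211, 96.6, 204 and 469 CPM in controls and 246, 513, 572 and 515 CPM in the mito-supplemented samples, with 11 of 14 tested, 9 above 0 and 2 below, a median of 0.60 and Amhr2 the most abundant (13.1 CPM per kb). Groups did not overlap for 1 of the 11, Lgr5, beside 3.00% of all genes tested with mito-supplemented samples higher. Lgr5 had 21.1, 16.6, 9.44 and 82.5 CPM in controls and 126, 268, 128 and 179 CPM in the mito-supplemented samples, and correlated with Kdr at r = 0.91 (rho 0.86) over the 8 libraries. It is named after its values were seen, and its part in the level of Kdr was not tested. None of the oocyte or granulosa genes was at 0 or called by the likelihood ratio test, beside 0.411% of all genes called higher and 0.00721% lower. Immediate-early genes, which cells induce soon after a stimulus, summed to 296, 751, 772 and 456 CPM in controls and 998, 1561, 2020 and 3696 CPM in the mito-supplemented samples. Of the 21 tested, 5 were called higher by the likelihood ratio test, beside 0.411% of all genes, the median log2 fold change was 1.45, beside -0.10 over all genes tested, with 19 above 0 and 2 below, and Egr1 was the most abundant (84.2 CPM per kb). None was at 0. The sum was above every control in all 4 mito-supplemented libraries, as were Esam and Acvrl1, and its part in those differences was not tested.

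**Figure D4:**
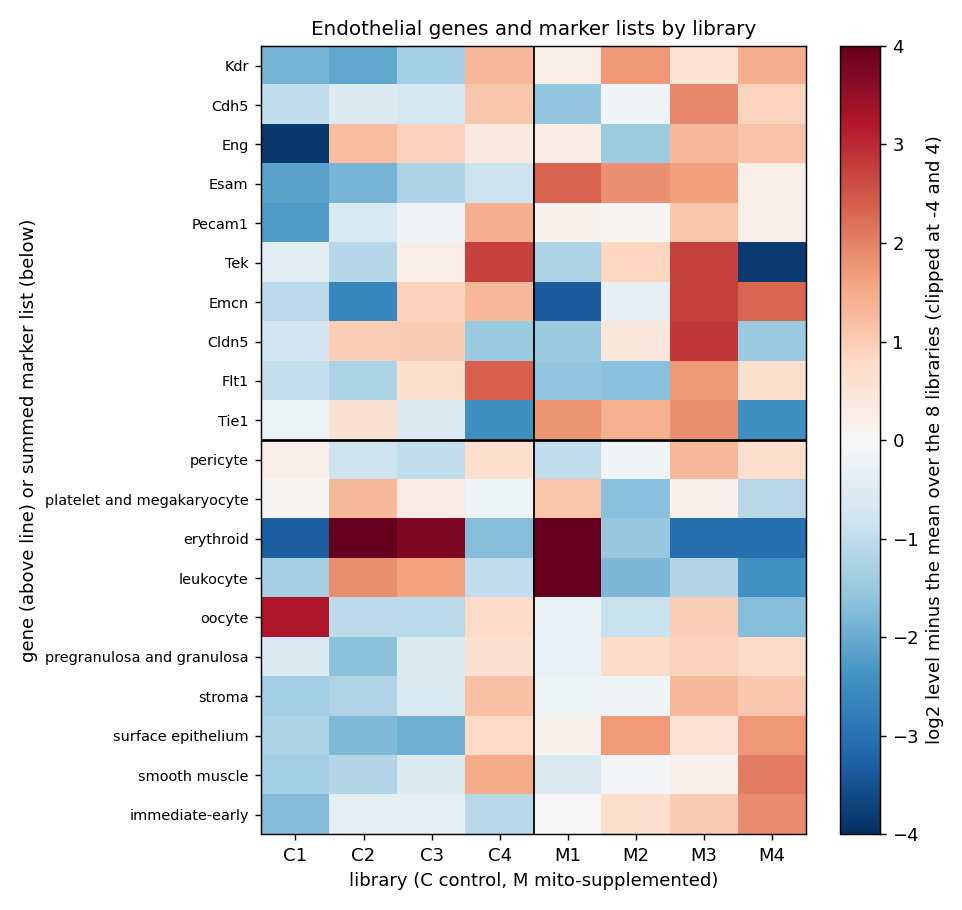
Log2 level in each library minus the mean over the 8 libraries, for the 10 endothelial genes (above the line, log2 CPM) and for the summed CPM of 10 marker lists (below), clipped at 4 in either direction. Columns are control (C1 to C4) and mito-supplemented (M1 to M4) replicates. C2, C3 and M1 stand out in the erythroid sum, and C4 and M3 in Tek and Flt1.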

How the data were processed

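Total RNA of primordial follicles was amplified and sequenced as single reads. The authors trimmed reads with Trim Galore 0.4.4, mapped them to GRCm38 (mm10) with STAR 2.5.3a and counted them on exons with featureCounts, and the deposited values are raw counts per gene symbol. The annotation release, strand setting and handling of multimapping reads are not stated in the sources used here. A control library the authors left out was not analysed here.

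Libraries were compared 4 against 4 with edgeR 4.0.16 in R 4.3.3 (TMM, filterByExpr defaults, quasi-likelihood test, Benjamini-Hochberg over 13873 genes). Alternatives were the likelihood ratio test, DESeq2 1.42.0, limma-voom (limma 3.58.1), other scalings and filters, a replicate block, counts summed by label code and each library left out. Depth ran from 10370045 to 19760763 counts, and 3 counts equal 0.123 to 0.592 CPM. Log2 CPM used a prior count of 2, and exon lengths came from GENCODE M21. The SE is the log2 fold change over the root of its F value. The prefixes of the label codes are nested in the groups and cannot be told apart from them. The fits were tested on simulated data, in which changed genes were called where libraries varied little and not where they varied widely. The simulated spread was the same for every gene and was not estimated from these libraries. The simulation therefore cannot say how many changes were missed here. A count of 0 calls does not show that no gene differed.

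Members and gene lists were chosen with earlier results of these data known. Named genes were the members; in the pathway lists, genes called by either edgeR test, up to 10 with the largest change among groups that do not overlap, and the most abundant per kilobase of each list; the most abundant and absent markers of each cell type list; and the 10 genes most like Esam and 5 most like the members' mean.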

Additional observations from a re-analysis of the deposited data

Results flagged for a closer look

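Within each group of 4 libraries, the gap between an extreme library and its nearest neighbour was divided by the range of the group in log2 CPM, and 6 of 96 groups exceeded the 95% critical value of Dixon's test, where chance gives about 1 in 20. Tie1 in mito-supplemented replicate 4, with 0 counts, lay below the other 3 libraries (ratio 0.896), and Eng in control replicate 1, with 10 counts, lay below the others (0.832). The summed level of the 10 endothelial genes in mito-supplemented replicate 1, 107 CPM against 209 to 231 CPM, lay below the others (0.870), although with library size only, chosen after seeing the data, the ratio was 0.812, under the critical value. Below the others in the same way were the pregranulosa and granulosa sum in the same library (0.871) and Smad5 there (0.858). Lmo2 in mito-supplemented replicate 1, with 2610 counts, lay above the others (0.844). No explanation was tested for these values.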

How the results depend on the processing

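The quasi-likelihood test called 0 genes, as did 16 of its 18 alternatives, whereas the likelihood ratio test called 58 and DESeq2 141. Of the other endothelial pathway genes, 2 were called with the likelihood ratio test (Acvrl1 and Ptprm) and 4 with DESeq2 (those 2 with Podxl and Klf4, the last named after its values were seen). Alternatives to the likelihood ratio test were chosen after seeing the data. Over the 8 fits with a library left out its lowest count was 13 (mito-supplemented replicate 2 left out) and its highest 387 (mito-supplemented replicate 1). Leaving out control replicate 4 gave 331, control replicate 2 gave 22 and mito-supplemented replicate 4 gave 26. The cause was not tested. With library size only and the rRNA genes left out it was 46. Pairing by replicate number was not supported, as same-numbered deviations correlated at -0.24, -0.19, -0.33 and 0.22. With the replicate block 0 genes were called by the quasi-likelihood test and 74 by the likelihood ratio test, with 2 pathway genes (Acvrl1 and Gpr116) and without Esam. Esam was among the likelihood ratio calls in 4 of 8 fits that each left out a library, and Kdr in the fit without control replicate 4.

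Of 161 log2 fold changes of members under alternatives, 18 had another sign than the value reported, 10 of them for Tek, 3 each for Flt1 and Eng and 2 for Pecam1, and 1, that of Kdr without control replicate 4, moved by over 1 SD. Esam ranged from 3.04 to 3.75. Under library size only, the median of all genes tested went from -0.10 to 0.17, and the values of Flt1 and Tek were above 0. In the order of levels per kilobase, Kdr kept place 1 in 9 of 9 alternatives and Esam place 4 in 8, the exception being the fit without mito-supplemented replicate 1, where it took place 6. Levels under 3 counts, which equal 0.123 to 0.592 CPM over the libraries, cannot be told from 0, and Tie1, Cldn5, Emcn and Tek had 0 or 1 count in at least 1 library.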
